A study of Mus musculus with 8 samples.

Results

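Chac1, Trib3, Nupr1, Stc2, Vldlr, Ddit4, Eif4ebp1 and Vegfa are stress effectors that act downstream of the transcription factors ATF4 and CHOP. These 8 genes were taken by name from the 55536 genes in each count table, in both RNA-seq and ribosome profiling. The set was chosen with earlier results of these data known, and each gene was kept whatever its values. The samples were KRPC-A cells, a mouse line of pancreatic tumour cells that resemble pancreatic ductal adenocarcinoma, derived from engineered tumours on the C57BL/6 background. Cells of 2 Gcn2 genotypes, wild-type (WT) and knockout (KO), were moved for 1 h to medium with all amino acids (replete) or to medium without leucine. Each of the 4 combinations gave 1 RNA-seq and 1 ribosome footprint library, so the 8 libraries form 8 groups of 1.

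How the knockout was made, and whether each genotype was 1 clone or a pool, is not given in the sources used here. With 1 library a group there is no replicate check and no p-value. All intervals are 95% intervals for counting error only, and they do not cover variation between cultures. Replete and leucine-free comparisons within a genotype share libraries with the genotype comparisons within a medium. Fewer cells expressing a gene and less of its RNA per cell cannot be told apart in these bulk samples.

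GCN2, encoded by Eif2ak4, is a kinase that senses uncharged transfer RNA when an amino acid runs short. It phosphorylates the initiation factor eIF2, which lowers protein synthesis in general and favours translation of Atf4 mRNA through its upstream open reading frames. ATF4 then switches on amino acid synthesis and transport genes, Ddit3, which encodes CHOP, and effectors such as those described here. The effectors act at several points. CHAC1 degrades glutathione, TRIB3 is a pseudokinase that restrains ATF4, CHOP and AKT signalling, and NUPR1 is a small chromatin-associated stress protein. STC2 is a secreted glycoprotein, VLDLR is a lipoprotein and reelin receptor, and VEGFA is the main growth factor for blood vessels. DDIT4, also called REDD1, restrains the mTORC1 kinase, and Eif4ebp1 encodes 4E-BP1, a repressor of cap-dependent translation that mTORC1 inactivates.

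The sequences shown hold matches to the C/EBP-ATF response element or to a looser form of it, the composite site bound by ATF4 with a C/EBP partner, in the 250 bases before the annotated starts. RefSeq (GRCm38.p6) promoters were available for 7 of the 8 genes, in 9 entries; Eif4ebp1 was not among them. Each line is 30 bases, 5′ to 3′ on the strand of the gene, with 1 match in capitals.
Chac1, chr2:119350992-119351021, plus strand, 250 to 243 bases before the start: TGACGCAAtctgactcgcccttgctgcatg
Chac1, chr2:119351038-119351067, plus strand, 193 to 186 bases before the start: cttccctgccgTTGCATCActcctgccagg
Trib3, chr2:152344075-152344104, minus strand, 33 to 26 bases before the start: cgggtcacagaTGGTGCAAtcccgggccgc
Nupr1, chr7:126625562-126625591, minus strand, 110 to 103 bases before the start: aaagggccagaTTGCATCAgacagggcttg
Vldlr, chr19:27216809-27216838, plus strand, 200 to 193 bases before its second listed start: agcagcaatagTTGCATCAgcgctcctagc

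The motif TGATGNAA was searched on both strands and was found in 3 of the 7 genes, Chac1, Nupr1 and Vldlr, each time as TTGCATCA on the gene's own strand. Of all 16808 genes with promoters of the same length, 3.57% had a match. A looser form, TGNNGCAA, was chosen after the sequences were seen; it covers these TTGCATCA matches and adds the TGACGCAA of Chac1 and the TGGTGCAA of Trib3. It also adds ttgctgca in Chac1, 230 to 223 bases before the start, which stands in lower case in the first line. The looser form was found in 4 of the 7 genes and in 10.6% of all genes. The Chac1 and Trib3 windows lie upstream of the Ensembl release 96 gene models, whereas the Nupr1 and Vldlr windows fall within an exon of those models. The cAMP response element TGACGTCA was in none of the 7 and in 2.23% of all genes. ACGTG, the core of the hypoxia response element, was in Nupr1, Ddit4 and Vegfa, and in 20% of all genes. Such matches are descriptions of the letters in these windows.

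Depth differed between the assays. Counts in protein-coding genes ran from 31357692 to 41911726 in the RNA-seq libraries and from 2425285 to 9250440 in the footprint libraries, of which WT leucine-free was the shallowest. Levels are normalised counts per 1e6 protein-coding counts (CPM), scaled within each assay. A gene counted as measured in an assay when its mean count over the 4 libraries was at least 30, which held for 10814 protein-coding genes in RNA-seq, 9169 in footprints and 9097 in both. Of the effectors, 7 were measured in RNA-seq, all but Nupr1, and 5 in footprints: Chac1, Trib3, Ddit4, Eif4ebp1 and Vegfa. A ratio was called when it was at least 2-fold (1 on the log2 scale) and its interval excluded 0. No effector shares exonic bases with another gene in the annotation.

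Eif2ak4 RNA was at 85.7 and 69.7 CPM in WT replete and leucine-free cells and at 13.6 and 16.7 CPM in KO cells, and its KO against WT log2 ratio was -2.65 in replete medium. Its footprints were at 60.2 and 65.2 CPM in WT replete and leucine-free cells. In KO cells they were at 7.26 CPM (5.34 to 9.66) with leucine and 16.2 CPM (12.65 to 20.5) without it, from 47 and 70 counts. The knockout libraries therefore still held reads of the targeted gene in both assays. The epithelial markers Krt8 and Krt18 were measured in both assays, while Krt19 had 7 to 25 RNA counts and Epcam had 0 in all 4 RNA libraries. Summed RNA of 10 duct and epithelial markers ran from 245 CPM in WT replete to 1105 CPM in KO leucine-free cells, and both KO libraries were above both WT libraries. For 8 fibroblast markers the sum ran from 81.7 to 194 CPM, also higher in KO, but the members differed. Of the 4 measured, Acta2 was called higher in KO in both media (2.11 and 2.19 on the log2 scale), Col1a1 and Col1a2 were called lower in both, and Pdgfrb was not called. The 6 acinar markers summed to at most 0.193 CPM with 4 at 0, and the 7 immune and endothelial markers to at most 0.909 CPM with 4 at 0. What part these genotype differences had in the KO against WT values below was not tested.

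In WT cells 3 of the 7 measured effectors were called higher in RNA without leucine, Chac1, Trib3 and Eif4ebp1, and 1 was called lower, Vldlr. Among all measured genes, 0.842% were called higher and 0.869% lower. In KO cells only Ddit4 was called among the 7, higher, against 1.78% of all genes called higher and 1.40% lower. The Eif4ebp1 call was lost with a length trend removed, at just under 1.00, and Vldlr was no longer measured with a minimum mean count of 100. The median log2 ratio of the 7 was 0.61 in WT and -0.20 in KO cells, and that of all genes was 0.00 in both. In footprints Chac1 and Trib3 were called higher of the 5 measured effectors in WT, where 0.894% of all genes were higher and 0.567% lower. Ddit4 alone of the 5 was called in KO, higher, where the shares of all genes were 1.53% higher and 0.567% lower.

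**Figure D1:**
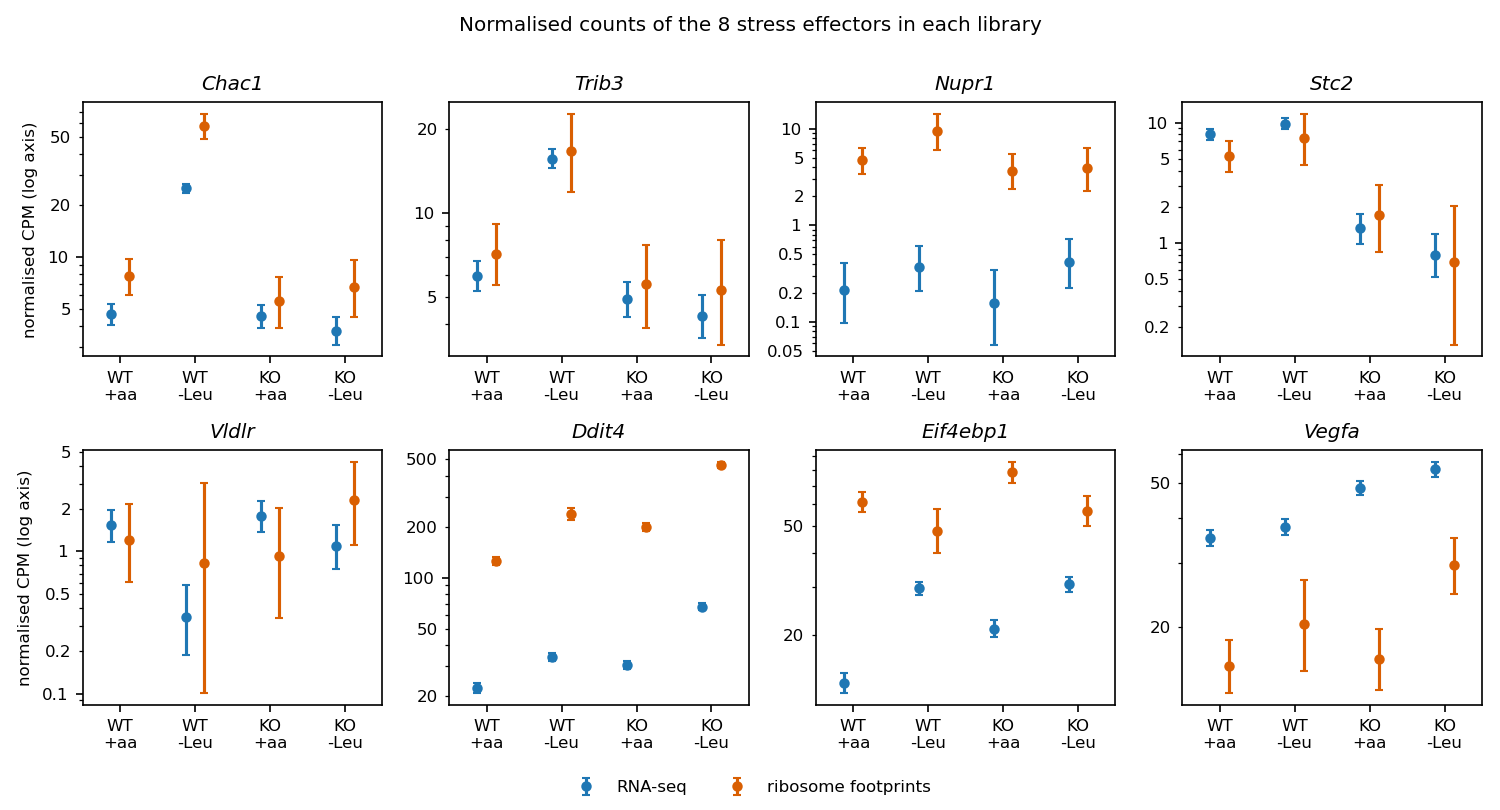
Normalised CPM (log axis) of each effector in the 4 RNA-seq (blue) and 4 footprint (orange) libraries; +aa is replete and -Leu is leucine-free medium, each point is 1 library and bars are 95% Poisson intervals of the count. Chac1 and Trib3 stand high in WT leucine-free cells, Stc2 is low in both KO media, and Ddit4 is highest in KO leucine-free cells.

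Chac1 (GRCm38 chr2:119351229-119354381, plus strand) encodes a gamma-glutamylcyclotransferase that breaks down glutathione, and it had the largest leucine ratio of the 8 genes in WT cells in both assays. Its RNA was at 4.665 CPM (95% interval 4.035 to 5.366) in WT replete and at 25.1 CPM (23.6 to 26.7) in WT leucine-free cells, from 196 and 1024 counts. In KO cells it was at 4.52 CPM (3.87 to 5.24) with leucine and 3.74 CPM (3.09 to 4.485) without it, from 173 and 116 counts. WT leucine-free cells thus stood apart, and the intervals of the other 3 libraries overlapped. The leucine log2 ratio was 2.43 (2.21 to 2.66), or 5.38-fold, in WT and -0.27 (-0.62 to 0.08) in KO, a difference of 2.70 (2.29 to 3.10).

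Chac1 footprints were also highest in WT leucine-free cells, with 7.72 CPM (6.02 to 9.75) in WT cells with leucine and 57.7 CPM (48.5 to 68.1) without it. The matching KO libraries stood at 5.56 CPM (3.90 to 7.70) and 6.72 CPM (4.503 to 9.66). These values rest on 70, 138, 36 and 29 counts. The WT log2 ratio of 2.90 (2.48 to 3.34) was 7.445-fold, and the KO ratio of 0.28 (-0.48 to 1.02) had an interval that included 0. Without leucine the KO against WT log2 ratio was -2.74 (-3.04 to -2.47) in RNA and -3.08 (-3.73 to -2.51) in footprints, and in replete medium both intervals included 0. Translation efficiency, the ratio of normalised footprints to normalised RNA, was higher without leucine by 0.47 (0.00 to 0.94) in WT and by 0.55 (-0.23 to 1.33) in KO on the log2 scale; neither was called. Chac2, its close relative, had RNA log2 ratios of 0.18 in WT and -0.45 in KO.

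Trib3 (chr2:152337422-152344032, minus strand), the pseudokinase, was also highest in WT leucine-free cells in both assays. Its RNA was at 5.975 and 15.7 CPM in WT cells with and without leucine and at 4.93 and 4.29 CPM in the matching KO cells, from 251, 639, 189 and 133 counts. Its footprints were at 7.17, 16.7, 5.56 and 5.33 CPM in the same order, from 65, 40, 36 and 23 counts. The other 3 libraries lay lower, and their footprint intervals overlapped. In RNA the interval of WT replete (5.26 to 6.76 CPM) lay above that of KO leucine-free (3.59 to 5.08 CPM). The replete KO against WT log2 ratio in RNA was -0.28 (-0.56 to 0.00). The WT leucine log2 ratio was 1.39 (1.18 to 1.61) in RNA and 1.23 (0.62 to 1.81) in footprints, against -0.20 (-0.53 to 0.13) and -0.05 (-0.88 to 0.73) in KO. The WT minus KO difference was 1.59 (1.21 to 1.97) in RNA and 1.28 (0.34 to 2.22) in footprints, and it was called in both. Its translation efficiency ratio without leucine was -0.16 (-0.77 to 0.44) in WT, so RNA and footprints differed by less than the counting error. Of its relatives, Trib1 had RNA leucine log2 ratios of 0.23 in WT and 0.54 in KO, and Trib2 of -0.15 and -0.12.

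Nupr1 (chr7:126623249-126630861, minus strand) was too low in RNA to be measured. It had 9 and 15 counts (0.214 and 0.368 CPM) in WT cells with and without leucine, and 6 and 13 counts (0.157 and 0.419 CPM) in the matching KO cells. All 4 RNA intervals of its leucine and genotype ratios included 0. Its footprints, with 43, 23, 24 and 17 counts in that order, averaged just under the minimum count and were at 4.74, 9.61, 3.71 and 3.94 CPM. WT leucine-free cells held the highest footprint level, with a WT log2 ratio of 1.03 (0.22 to 1.78) against 0.10 (-0.90 to 1.04) in KO. The WT minus KO difference of 0.93 (-0.21 to 2.08) had an interval that included 0.

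Stc2 (chr11:31357307-31370074, minus strand), the secreted stanniocalcin, differed mainly by genotype. Its RNA was at 8.02 CPM in WT replete and 9.85 CPM in WT leucine-free cells, from 337 and 401 counts, and at 1.33 and 0.806 CPM in the 2 KO libraries, from 51 and 25 counts. Both WT libraries lay above both KO libraries, with no overlap of intervals. The KO against WT log2 ratio was -2.58 (-3.05 to -2.16) with leucine, or 5.98-fold lower, and -3.58 (-4.26 to -3.03) without it. Footprints, which were not measured by the minimum count, were at 5.29, 7.52, 1.70 and 0.696 CPM from 48, 18, 11 and 3 counts, in the same order of libraries. The leucine log2 ratio in RNA was 0.30 (0.08 to 0.51) in WT and -0.71 (-1.48 to -0.01) in KO. Their difference of 1.00 (0.29 to 1.72) met the 2-fold rule narrowly, at 2.007-fold, and was 0.96 with a prior count of 2.

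Vldlr (chr19:27216484-27254231, plus strand) was the only effector called lower in WT cells without leucine. Its RNA counts were few, at 64 and 14 in WT cells with and without leucine and 68 and 34 in the matching KO cells, giving 1.52, 0.344, 1.78 and 1.10 CPM. WT leucine-free cells were the lowest of the 4, with an interval of 0.188 to 0.577 CPM that did not reach those of the others. The leucine log2 ratio was -2.11 (-3.10 to -1.30) in WT and -0.68 (-1.33 to -0.08) in KO, a difference of -1.42 (-2.44 to -0.41). Footprint counts of 11, 2, 6 and 10 gave a WT log2 ratio of -0.28 (-3.75 to 1.66), so no footprint difference was detectable at this depth. Lrp8, which like Vldlr encodes a reelin receptor, had RNA leucine log2 ratios of -0.20 in WT and -0.03 in KO cells.

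**Figure D2:**
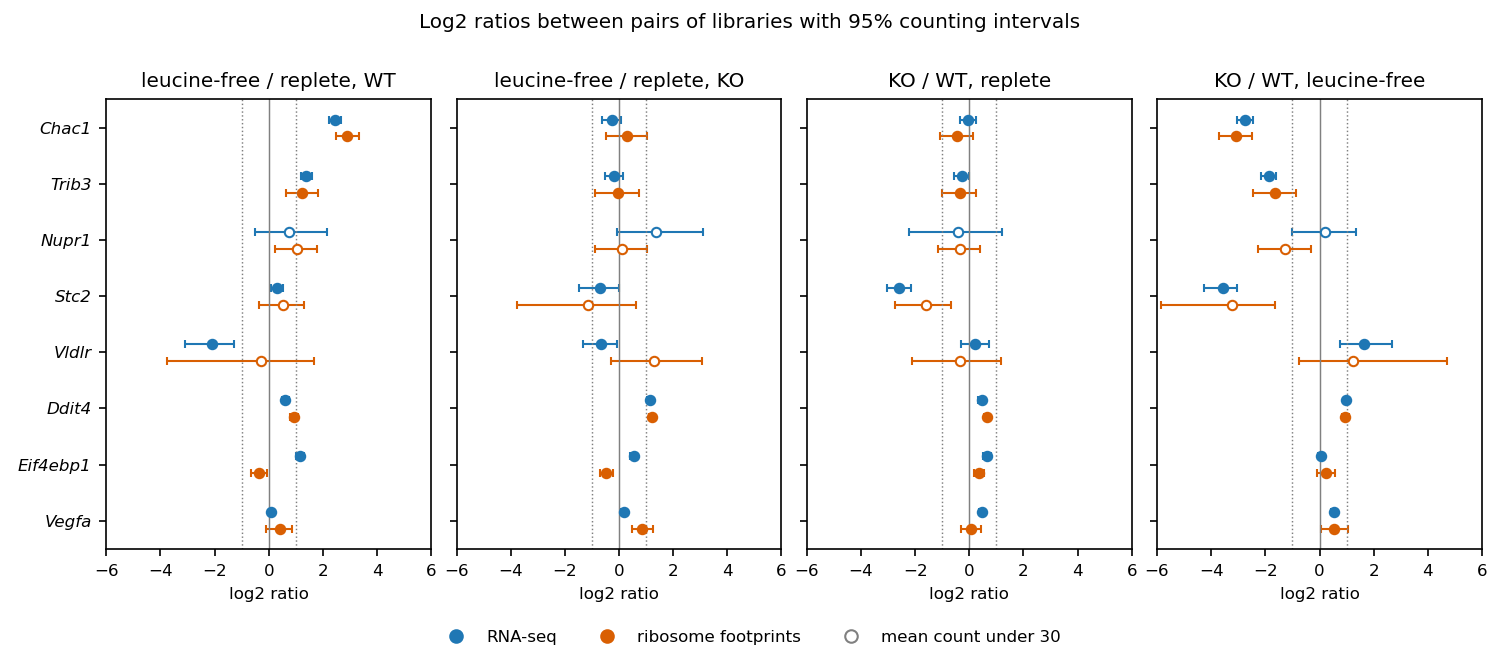
Log2 ratios of the effectors, leucine-free over replete, in WT and KO cells for RNA-seq and footprints, with 95% counting intervals; each point compares 1 library with 1 library. Chac1 RNA is at 2.43 in WT and -0.27 in KO, and Ddit4 RNA is at 0.61 in WT and 1.14 in KO.

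Ddit4 (chr10:59949669-59951834, minus strand), the mTORC1 inhibitor, was higher without leucine in both genotypes and was higher in KO than in WT cells in both media. RNA was at 22.3 and 33.9 CPM in WT and at 30.6 and 67.5 CPM in KO cells, replete and then leucine-free, from 935, 1382, 1172 and 2095 counts. Footprints were at 125.8, 238.6, 200 and 462 CPM in the same order. KO leucine-free cells were the highest in both assays, and their intervals overlapped with none of the others. The leucine log2 ratio was 0.61 (0.49 to 0.73) in WT RNA and 1.14 (1.04 to 1.25) in KO RNA, and 0.92 (0.78 to 1.07) and 1.21 (1.11 to 1.31) in footprints. The WT minus KO difference was -0.53 (-0.69 to -0.38) in RNA and -0.28 (-0.46 to -0.11) in footprints, under 2-fold in both. Only the KO ratios were called, and the WT footprint ratio of 1.90-fold came close to the threshold.

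Ddit4 also had the most RNA and the most footprints per kilobase of exon among the 8 genes in each of the 8 libraries. RNA ran from 12.7 to 38.5 CPM per kilobase and footprints from 71.7 to 263 CPM per kilobase. Translation efficiency on the log2 scale was 2.50 and 2.81 in WT cells with and without leucine, and 2.71 and 2.77 in the matching KO cells. Those levels exceeded 94.05% to 96.9% of the 9097 genes measured in both assays, whose median ran from 0.01 to 0.04. Both assays were counted over all exons. Translation efficiency levels of different genes, here and below, therefore also depend on the coding share of their exons, which was not taken into account. Immediate early genes, which respond within minutes to many stimuli, were also higher: 7 of 18 were called higher in RNA without leucine in WT and 15 of 18 in KO, with medians of 0.80 and 2.59 on the log2 scale, where 0.842% and 1.78% of all genes were called higher. Their part in the Ddit4 values was not tested.

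Eif4ebp1 (chr8:27260329-27276674, plus strand), which encodes the translation repressor 4E-BP1, had opposite signs in the 2 assays. Its RNA was at 13.4 and 29.6 CPM in WT and 21.1 and 30.6 CPM in KO cells, replete and then leucine-free, from 562, 1205, 809 and 950 counts. Its footprints were at 61.3 and 48.1 CPM in WT and 78.5 and 56.8 CPM in KO cells, from 556, 115, 508 and 245 counts. Both leucine-free libraries were higher than their replete partner in RNA and lower in footprints. The leucine log2 ratio in RNA was 1.14 (1.00 to 1.29) in WT and 0.54 (0.40 to 0.67) in KO, and in footprints -0.35 (-0.65 to -0.06) and -0.47 (-0.69 to -0.24). RNA in the 2 leucine-free libraries differed by 0.05 (-0.07 to 0.17), whereas in replete medium KO was higher by 0.66 (0.50 to 0.82).

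Translation efficiency of Eif4ebp1 went from 2.20 to 0.71 on the log2 scale in WT and from 1.89 to 0.89 in KO when leucine was left out. It exceeded 91.9% of genes in WT replete and 70.1% in WT leucine-free cells. It was called lower without leucine in both genotypes, with log2 ratios of -1.49 (-1.81 to -1.17) in WT and -1.0 (-1.26 to -0.74) in KO, and was the 1 effector called of 5 in each. Among all genes measured in both assays, 1.24% were called higher and 1.69% lower in WT, and 1.58% higher and 1.41% lower in KO. The KO call sat at the threshold and was lost under 3 other scalings, at -0.99 with DESeq2 size factors, -0.92 with total counts and -0.93 with a length trend removed. The WT minus KO difference was -0.49 (-0.90 to -0.08) and was not called. Its relative Eif4ebp2 had RNA log2 ratios of -0.22 in WT and -0.06 in KO, and in footprints -1.01 (-1.47 to -0.61), called lower, in WT and 0.39 (0.14 to 0.64) in KO.

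**Figure D3:**
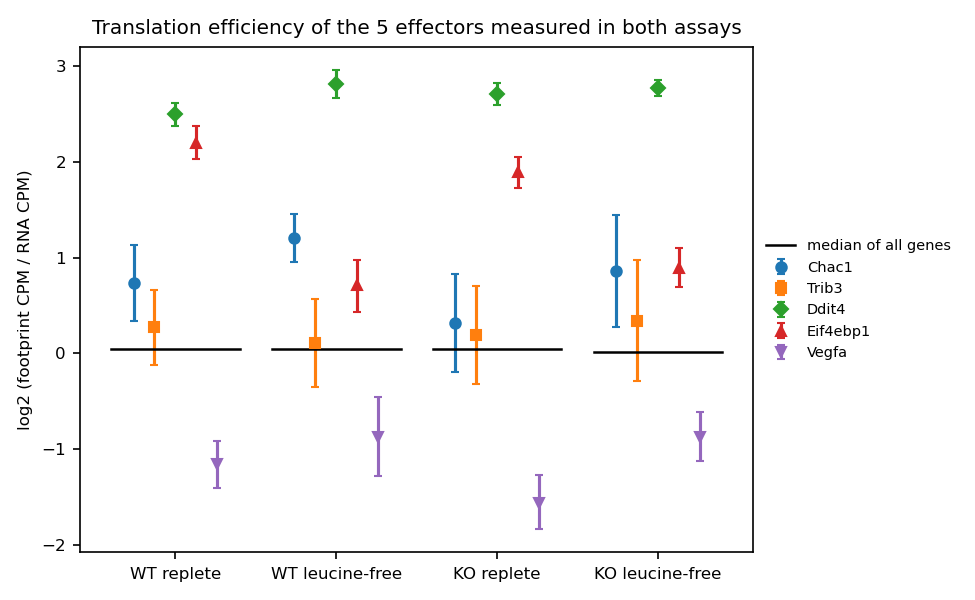
Log2 translation efficiency (normalised footprints over normalised RNA) of the 5 effectors measured in both assays, in each genotype and medium, with 95% Wald counting intervals. Ddit4 stays between 2.50 and 2.81, while Eif4ebp1 is at 2.20 in WT replete and 0.71 in WT leucine-free cells.

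Vegfa (chr17:46016993-46032369, minus strand), the vascular growth factor, differed little with leucine in RNA. In footprints its leucine ratio had an interval above 0 in KO cells only. The WT minus KO difference in footprints, -0.46 (-1.06 to 0.14), had an interval that included 0. RNA was at 35.2 and 37.7 CPM in WT and 48.4 and 54.4 CPM in KO cells, replete and then leucine-free, from 1478, 1537, 1854 and 1687 counts. Footprints were at 15.7, 20.5, 16.4 and 29.7 CPM from 142, 49, 106 and 128 counts. In RNA both KO libraries lay above both WT libraries, by 0.46 (0.36 to 0.56) with leucine and 0.53 (0.43 to 0.63) without it on the log2 scale. The RNA leucine log2 ratio was 0.10 (0.00 to 0.21) in WT and 0.17 (0.07 to 0.26) in KO. In footprints it was 0.40 (-0.11 to 0.86) in WT and 0.86 (0.47 to 1.24) in KO, the latter 1.81-fold and below the 2-fold rule. For its translation efficiency the leucine log2 ratio was 0.30 (-0.18 to 0.77) in WT and 0.69 (0.31 to 1.07) in KO, and neither was called. Its translation efficiency was the lowest of the 5 effectors measured in both assays, from -1.56 to -0.87 on the log2 scale. Of its relatives, Vegfd RNA was called lower in KO than in WT cells, at -1.60 with leucine and -1.14 without it, with leucine log2 ratios of 0.00 in WT and 0.46 in KO.

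The remaining comparisons set the genotypes against each other. In replete medium Stc2 alone of the 7 effectors was called in RNA, lower in KO, where 4.36% of all genes were higher and 2.51% lower. None of the 5 was called in replete footprints, where 2.20% of genes were higher and 0.829% lower. Without leucine 3 of 7 were called lower in KO RNA, Chac1, Trib3 and Stc2, and Vldlr was called higher, with a log2 ratio of 1.64 (0.74 to 2.69). The shares of all genes there were 5.27% higher and 3.12% lower. In leucine-free footprints Chac1 and Trib3 were called lower in KO of the 5, where 4.89% of genes were higher and 2.34% lower. Ddit4 was higher in leucine-free KO cells by 0.99 (0.89 to 1.09) in RNA and 0.95 (0.82 to 1.09) in footprints, just under the threshold. It was called in RNA with a length trend removed, at 1.02, and in footprints with total counts, at 1.02. For translation efficiency none of the 5 was called between genotypes, with 0.583% of genes higher and 0.802% lower in replete medium and 3.89% higher and 2.06% lower without leucine.

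The leucine log2 ratio in WT minus that in KO was called above 0 in RNA for Chac1, Trib3 and Stc2 and below 0 for Vldlr, of 7. Among all genes 2.20% were above and 2.47% below. In footprints Chac1 and Trib3 were called above 0 of 5, and 1.71% of genes were above and 2.89% below. None of the 5 was called for translation efficiency, where the shares were 3.47% above and 4.34% below. The leucine ratios in WT had the same sign in both assays for 4 of the 5 effectors, with Eif4ebp1 the exception, and 46.5% of all genes had the same sign. In KO the count was 3 of 5, with Chac1 and Eif4ebp1 the exceptions, and 49.8% of all genes.

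**Figure D4:**
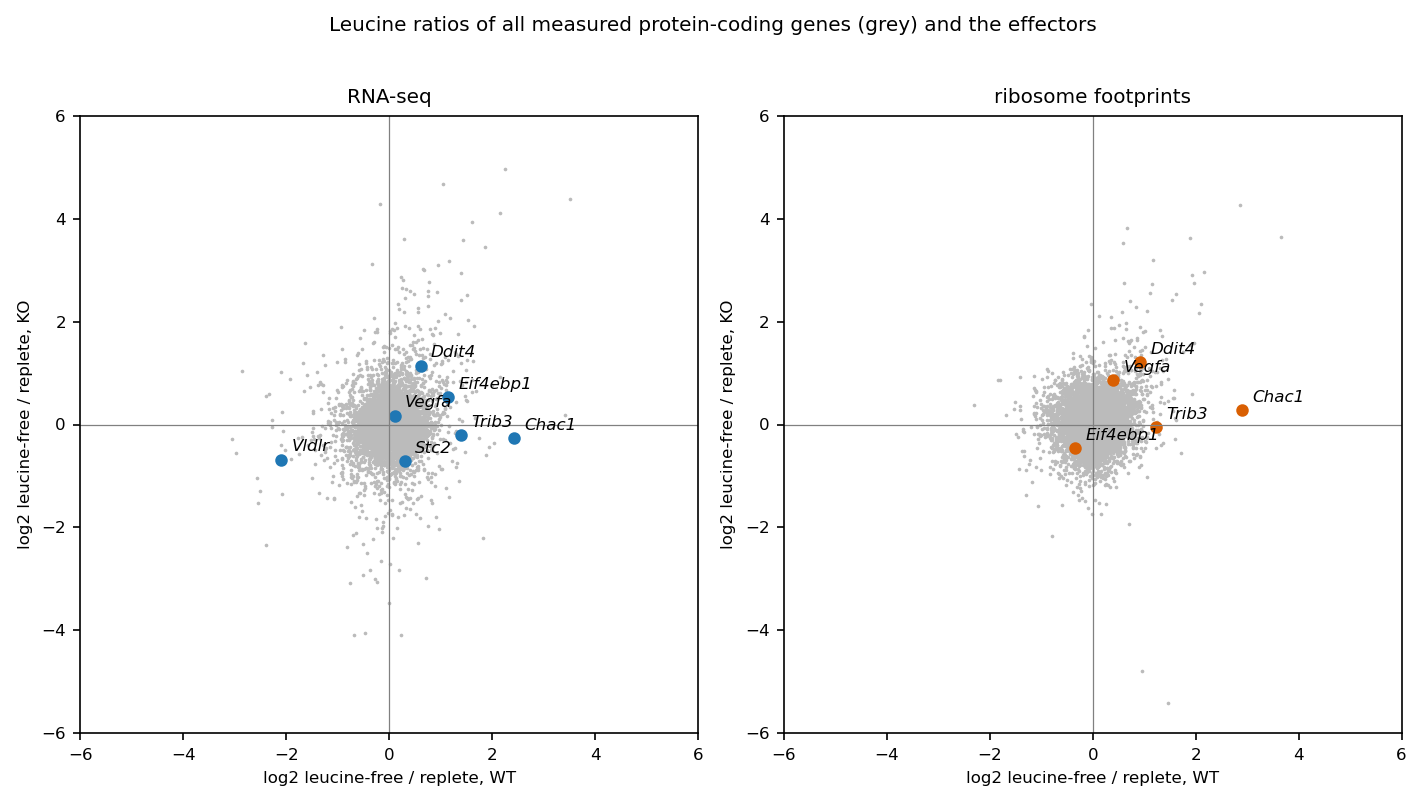
Log2 leucine ratio in WT (horizontal) against KO (vertical) of all measured protein-coding genes (grey) and the measured effectors (coloured), for RNA-seq and footprints. Chac1 and Trib3 lie far right near 0 in KO, Ddit4 is above the diagonal, and Vldlr lies left at -2.11 in WT.

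The order of RNA per kilobase of exon shifted with the medium. In WT replete cells it ran Ddit4, Vegfa, Eif4ebp1, Chac1, Trib3, Stc2, Vldlr and Nupr1, and the intervals of Chac1 and Trib3 overlapped, as did those of Vldlr and Nupr1. In WT leucine-free cells Chac1 moved up to the second place at 15.4 CPM per kilobase, from 2.85 in replete medium, and no neighbours in that order overlapped. In KO leucine-free cells it stood at 2.28 CPM per kilobase, overlapping Trib3 at 2.02. Vldlr and Nupr1 were at or below 0.176 and 0.167 CPM per kilobase in each library, where at most 1.69% of measured genes were lower. In footprints per kilobase Eif4ebp1 was second to Ddit4 in 3 of the 4 libraries, at 27.9, 35.75 and 25.9 CPM per kilobase in WT replete and both KO libraries. In WT leucine-free cells Chac1 was second at 35.2 CPM per kilobase (29.6 to 41.6), above Eif4ebp1 at 21.9 (18.1 to 26.3). Chac1, Vegfa and Trib3 lay close together in the other 3 libraries, each overlapping its neighbour in that order, and Stc2 and Vldlr were the lowest in all 4. Exon length includes untranslated parts. The order of footprints between genes may therefore differ from that per kilobase of coding sequence, which was not calculated.

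The upstream factors were followed in the same libraries. Atf4 RNA was at 261 and 486 CPM in WT cells with and without leucine and at 465 and 528 CPM in KO cells, so WT replete cells were the low library. Atf4 footprints were at 172, 527, 199.5 and 212 CPM in that order, with WT leucine-free cells the high library. Atf4 RNA had leucine log2 ratios of 0.90 (0.86 to 0.93) in WT and 0.18 (0.15 to 0.21) in KO, and Atf4 footprints of 1.61 (1.51 to 1.72) and 0.09 (-0.04 to 0.21). Ddit3 RNA was at 1.12 (0.84 to 1.42) in WT and 0.83 (0.51 to 1.16) in KO. Ddit3 footprints were at 3.66 and 3.64, from 21 and 71 counts in WT and 4 and 37 in KO. Their mean count of 33.25 met the minimum of 30 narrowly. Both leucine-free libraries were above that minimum and both replete libraries below it, so these ratios rest on few replete counts, above all in KO. Atf3, a stress-induced relative of ATF4, had RNA log2 ratios of 1.6 (1.31 to 1.89) in WT and 3.92 (3.67 to 4.20) in KO. The Atf4 footprint ratio was called in WT and not in KO, as for Chac1 and Trib3. Both genotypes were called for Atf3, and for Ddit3 footprints on few replete counts.

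Other genes of the pathway are given by list. Of 34 further ATF4 and CHOP targets, 31 were measured in RNA, and 2 were called higher without leucine in WT cells, Herpud1 at 1.04 and Gadd45a at 1.30, with a list median of 0.23, where 0.842% of all genes were higher. None was called in KO, with a median of 0.06, where 1.78% of all genes were higher. In footprints 1 of 27 was called in WT, Herpud1 at 1.18, and none in KO, with medians of 0.23 and -0.18, where 0.894% and 1.53% of all genes were higher. No gene was called in RNA in either leucine comparison among 9 measured family members of the effectors, 16 partners and receptors, 12 targets of the hypoxia factor HIF or 12 chaperones of the endoplasmic reticulum, where 0.842% (WT) and 1.78% (KO) of all genes were higher and 0.869% and 1.40% lower.

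Genes whose profile over the 8 libraries was nearest to an effector were found by Euclidean distance of log2 CPM centred within each assay. For Chac1 they were Trib3 (1.64), Ppp1r15a (1.75) and Herpud1 (1.87), against a median distance of 3.53 over 9096 genes. For Trib3 they were Herpud1 (0.33), Hist1h2bp (0.88) and Zfp12 (0.92), against a median of 2.02. WT leucine log2 ratios in RNA and footprints were 1.39 and 1.23 for Trib3, and 1.04 and 1.18 for Herpud1. They were 0.82 and 0.29 for Hist1h2bp and 0.28 and 0.98 for Zfp12. Tsc22d1 (0.54), Hes1 (0.56) and Ier5 (0.57) were nearest to Ddit4, with a median of 1.85. Smim8 (0.40), Dhrs7 (0.44) and Nsmce2 (0.45) were nearest to Eif4ebp1, with a median of 1.22. Hic1 (1.12), Usf3 (1.32) and Ubtd2 (1.36) were nearest to Vldlr, with a median of 2.18, although Vldlr had few footprint counts.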

How the data were processed

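RNA-seq and ribosome footprints were measured in KRPC-A cells, Gcn2 WT and KO, in replete or leucine-free medium. The deposited values are raw read counts per gene. Per the file headers, the authors made them with featureCounts 1.6.4 on exons of Ensembl release 96 genes, with no strand option. Tools listed in the submitters' processing notes are STAR, cutadapt, Subread and featureCounts, with build GRCm38. Without strand, antisense reads add to a gene, and footprints in untranslated exons count too. Per the labels' protocols, lysis used cycloheximide and footprints were made with ribonuclease I.

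Symbols were joined for 55450 of 55536 genes (99.85%), and 21420 were classed as protein-coding through RefSeq GRCm38.p6. Counts were scaled within each assay by trimmed mean of M-values factors (0.98 to 1.03; edgeR 4.0.16, R 4.3.3), with a prior count of 0.5 in ratios. Pairs of libraries have exact conditional binomial intervals, differences and translation efficiencies Wald intervals, and levels exact Poisson intervals, all 95% (scipy 1.17.1). Polymerase chain reaction copies are not independent molecules, so intervals cover counting error only. The calculation was tested on simulated Poisson counts, which hold no variation between cultures or libraries and so check the counting intervals only. Alternatives were DESeq2 1.42.0 size factors, total counts, a removed length trend, other count minimums, a prior count of 2 and a 1.5-fold threshold. The 8 effectors were named whatever their values, with regulators, family members, the 3 nearest genes of each called effector and at most 2 extremes per list. The effectors and gene lists were chosen with earlier results of these data known.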

Additional observations from a re-analysis of the deposited data

Results flagged for a closer look

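Stc2 RNA moved in opposite directions without leucine in the 2 genotypes, with a log2 ratio of 0.30 in WT and -0.71 in KO cells, and both counting intervals excluded 0. Each ratio rests on 1 library against 1 library, so the difference was not tested across cultures. The KO ratio compares 51 with 25 counts, and the upper end of its interval, -0.01, lies next to 0.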

How the results depend on the processing

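No paired analysis was possible because each group is 1 library, and for the same reason no replicate could be left out. No called ratio of an effector changed sign. Of those not called, 5 did, counting only values that do not round to 0.00. With a prior count of 2 these were Vldlr in WT footprints without leucine (-0.28 to 0.22) and in the WT minus KO translation efficiency (-0.13 to 0.40). With a length trend removed they were Chac1 in the WT minus KO translation efficiency (-0.08 to 0.11) and Trib3 in WT translation efficiency (-0.16 to 0.04). With total counts the change was in Ddit4, for leucine-free KO against WT translation efficiency (-0.04 to 0.04). Vegfa in that comparison was at 0.00, a ratio of 0.9994, and at 0.08 with total counts. All 120 values stayed within their counting interval with DESeq2 size factors, with total protein-coding counts and with a prior count of 2. With a length trend removed 117 did, and 3 moved: Ddit4 to 0.42 and Eif4ebp1 to 1.00, no longer called, in WT RNA without leucine, and Ddit4 translation efficiency in WT to 0.57. A 1.5-fold threshold raised the called effectors from 1 to 3 in KO RNA without leucine, from 1 to 2 in replete KO against WT RNA, from 1 to 2 in KO footprints without leucine, from 0 to 1 in replete KO against WT footprints and from 1 to 2 in KO translation efficiency. The same threshold added Ddit4 in WT RNA and WT footprints without leucine, and in leucine-free KO against WT in both assays. It added Eif4ebp1 in the WT minus KO difference of RNA. A mean count of at least 100 left 3 effectors in footprints and took the calls from 2 to 0 in WT without leucine, in leucine-free KO against WT and in the WT minus KO difference, since Chac1 and Trib3 fell below it. With no count minimum the calls were 1 (Stc2) in replete and 4 in leucine-free KO against WT footprints, 2 in KO translation efficiency without leucine and 1 (Nupr1) in leucine-free KO against WT translation efficiency. Nupr1 was also added in WT footprints without leucine. KO translation efficiency without leucine went from 1 call to 0 with DESeq2 size factors, total counts or the length trend removed, because Eif4ebp1 sits at the threshold. Among all genes, the length trend changed WT RNA calls without leucine from 91 higher and 94 lower to 65 and 111, and WT translation efficiency calls from 113 and 154 to 111 and 85. Scaling to total counts changed translation efficiency calls from 144 higher and 128 lower to 195 and 93 in KO without leucine, and from 354 and 187 to 461 and 132 in leucine-free KO against WT. Footprint counts of Nupr1, Stc2 and Vldlr, from 2 to 48 a library, limit their ratios.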

Other observations

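Nupr1 had far more footprints than RNA in each library relative to other genes. Its log2 translation efficiency in WT cells was 4.41 (95% interval 3.39 to 5.42) with leucine and 4.69 (3.76 to 5.61) without it. In KO cells it was 4.48 (3.23 to 5.73) with leucine and 3.22 (2.20 to 4.25) without it. These levels exceeded 97.4% to 99.5% of the 9097 genes measured in both assays, but they rest on 6 to 15 RNA counts a library. The coding share of the exons was not taken into account here either.

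The 250 bases before the Chac1 start held matches to the looser C/EBP-ATF form TGNNGCAA, which was chosen after the sequences were seen. They lay at 250, 230 and 193 bases before the start, and 1 of them is also a TGATGNAA match. How many other genes hold several matches to the looser form was not counted.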
